A study of Homo sapiens with 6 samples.

Results

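The 3 single clones of MDA-MB-231 cells that carried a hairpin against WASF3 were compared with each other, gene by gene, to describe how far they had come apart. A gene was counted as set apart in a clone when that clone lay at least 2-fold (1 on the log2 scale) above both of the other knockdown clones or below both of them. This held for 525 of 19775 genes, or 2.65%, each read on the probe set that was brightest on average over the 6 arrays. Under the same rule 0 genes (0%) were set apart in any of the 3 control clones.

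MDA-MB-231 is an established line of human breast cancer without oestrogen receptor, used as a model of invasive disease. The infected cells received pSM2 retroviral vectors, with 1 of 2 hairpins against WASF3 in the knockdown cells, and with no hairpin or a hairpin against GFP in the controls. All were selected in puromycin at 1 µg/ml for 2 weeks, and drug-resistant clones were grown out singly, so knockdown and control clones shared the vector backbone, the drug and the cloning step. The labels give passage 4 for all cells and do not say which hairpin or control vector each clone carried. RNA of each clone was read on 1 Affymetrix 3′ expression array, 3 knockdown and 3 control arrays in all, and values are log2 RMA signals. With 1 array for each clone there is no spread within a clone, so differences between clones have no test and no p-value, and a difference between clones cannot be told apart from one between hairpins or between RNA preparations.

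The control arrays were very alike, which bears on every contrast below. The median difference between control arrays was 0.082 to 0.090 on the log2 scale, and 0 genes were 2-fold apart in any control pair. The median over genes of the control range (highest minus lowest array) was 0.14, its 99th percentile 0.53 and its largest value 0.99. The labels call the controls separate single clones, and the values cannot show whether the control vectors differed or how the control clones arose. The control spread given here may therefore be smaller than the spread between independently grown clones without a hairpin, and no other clones were measured to give that spread. The array medians lay between 5.13 and 5.17. The signal of the 3′ over the 5′ probe sets of ACTB, which grows as RNA is degraded or incompletely copied, was 3.81, 3.15 and 3.26 on the log2 scale in knockdown clones 1, 2 and 3 and 2.27, 2.91 and 2.47 in the control clones. For GAPDH it was 0.42 in knockdown clone 1 and between −0.01 and 0.09 in the other 5 arrays. Of 12 identity markers of the line, 11 did not separate the knockdown clones, with vimentin (VIM) between 14.06 and 14.31 on all arrays and the progesterone receptor (PGR) between 3.19 and 3.56. The exception was CDH1, which was higher in clone 1 at 7.33, against 4.44 and 4.47 in clones 2 and 3. Of 16 leukocyte, 5 basal keratinocyte, 7 melanocytic and 10 fibroblast markers, 0 were set apart in any knockdown clone. Over all genes 2.65% were, a share at which lists of this size would hold few. Only 2, 2, 1 and 1 of these markers, in the same order, had a mean of at least 6, and genes near background have little room to come apart. Of 16 luminal breast markers, by contrast, 4 (25%) were set apart, and these are described below. Of 10 endothelial markers PECAM1, an adhesion molecule also made by other cells, was set apart, at 7.57, 7.52 and 6.38 in knockdown clones 1, 2 and 3 with a control mean of 7.62 ± 0.06 (SD, n = 3).

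WASF3 (WAVE3) belongs to the WAVE family, which, as part of a larger complex, carries signals from the small GTPase RAC1 to the ARP2/3 complex and so drives the growth of branched actin at the front of a moving cell. KISS1 encodes the kisspeptins and was found as a gene that holds back metastasis. A line grown from many cells is a mixture: single cells of a cancer line can differ in chromosome content and in stable expression states, and a line expanded from 1 cell inherits the state of its founder. A stable knockdown clone therefore carries the hairpin, the site where the vector entered and the state of the cell it came from, and these cannot be told apart in a single clone.

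WASF3 itself was lower in every knockdown clone than in every control clone, and it was not among the genes set apart. Its signal was 5.40, 5.80 and 4.52 in knockdown clones 1, 2 and 3, and 6.77, 6.42 and 6.59 in control clones 1, 2 and 3. This left 43.8%, 57.5% and 23.8% of the mean control signal. The reading of clone 3 lies under the array medians of 5.13 to 5.17 and may be background, and those of clones 1 and 2 lie not far above them. The percentages are therefore uncertain, and they rest on 1 probe set. Clone 3 lay 0.88 below clone 1 on the log2 scale, short of the 2-fold limit, and clones 1 and 2 lay 0.39 apart, against a control SD of 0.18 (n = 3). The clone with the least WASF3 signal was thus clone 3, which was also the clone set apart at the most genes, but 3 clones allow no test of such a relation.

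KISS1 separated all 3 knockdown clones. Its signal was 4.37, 6.15 and 7.99 in clones 1, 2 and 3, and 4.25, 4.11 and 4.19 in the control clones. Clone 1 lay 1.78 below clone 2 on the log2 scale (3.43-fold), and clone 3 lay 1.84 above it (3.58-fold). Clone 1 stood only 0.19 above the control mean, close to the control level, while clone 3 stood 3.81 above it. The control level lies under the array medians and may be background, which makes the fold of a clone over control uncertain. The gene has no further probe set with its name alone, so the order of the clones rests on 1 probe set.

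Clone 3 was the most distant of the knockdown clones. Clones 1 and 2 differed by at least 2-fold at 229 genes, clones 1 and 3 at 887 genes, and clones 2 and 3 at 620 genes. The knockdown clones also differed from single control arrays, at 205 to 229 genes for clone 1, 301 to 311 for clone 2 and 626 to 659 for clone 3. The distance between clones 1 and 3 was therefore larger than the distance of either clone from any control array when measured by this count. The median range over genes was 0.31 among knockdown clones against 0.14 among controls, and 1186 genes (6.00%) had a knockdown range of at least 2-fold against 0 among controls. The widest range, 5.24 for SPANXB1, was that of a cancer-testis gene.

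**Figure D1:**
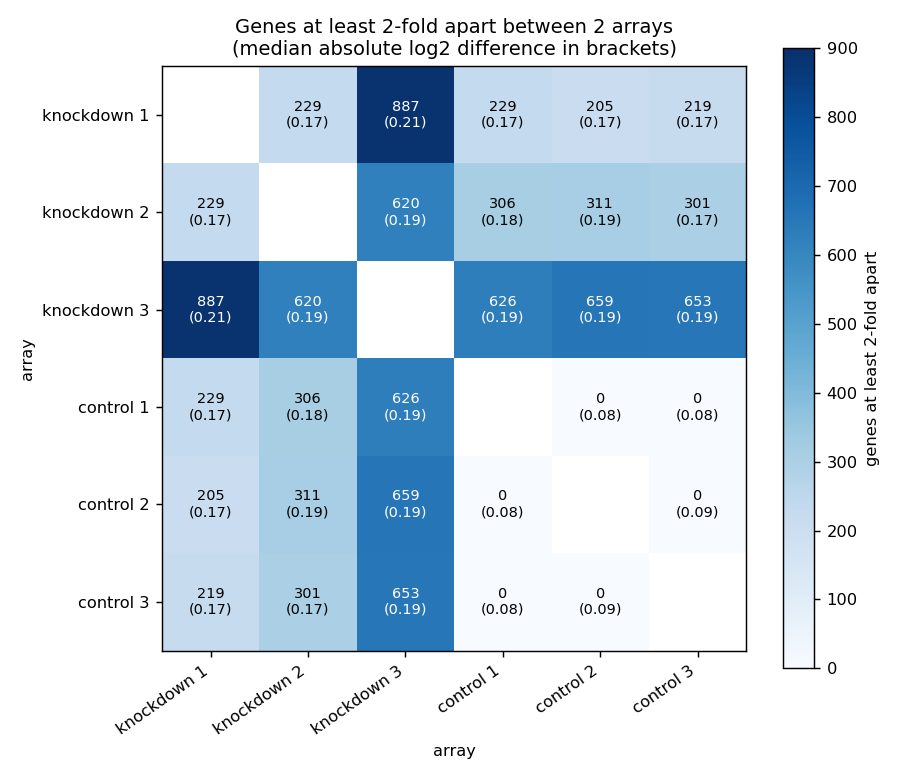
Each cell of the grid gives, for the 2 arrays named on its axes, the number of genes at least 2-fold apart (also its colour) and, in brackets, the median absolute log2 difference over all genes. Clones 1 and 3 are the farthest pair at 887 genes, and all control pairs are at 0.

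Clone 3 was set apart at 393 genes (1.99% of those measured), 152 higher (0.769%) and 241 lower (1.22%). Clone 1 was set apart at 103 genes (0.521%), 57 higher (0.288%) and 46 lower (0.233%). Clone 2 was set apart at 54 genes (0.273%), 38 higher (0.192%) and 16 lower (0.0809%). A further description of these sets is that 25 genes (0.126%) had all 3 clones at least 2-fold apart and were counted under both end clones, which gives 550 calls for 525 genes. Calls of clone 3 covered 74.9% of the genes. When a gene was read as the mean of all its probe sets, the count fell to 315 genes, 235 of them in clone 3, and clone 3 remained the clone with the most. Most calls were modest in size, with a median distance of 1.25 on the log2 scale to the nearer clone, and 58 of 550 reached 4-fold (44 in clone 3, 10 in clone 1 and 4 in clone 2). The limit itself separates near neighbours: among genes higher in clone 3, LINC02535 lay just inside at 1.001 and RGL3 just outside at 0.9998.

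**Figure D2:**
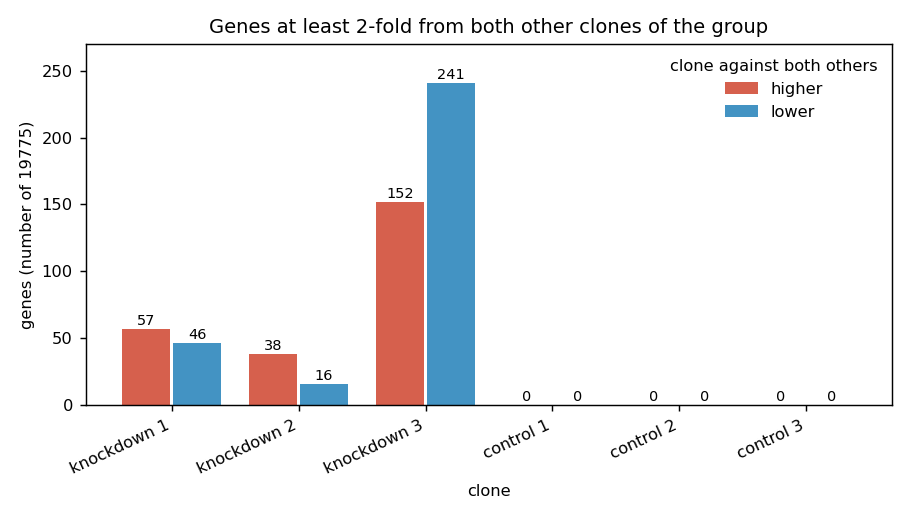
Bars give, for each clone, the number of genes (of 19775, linear axis) at least 2-fold above or below both other clones of its group. Knockdown clone 3 has the most, 152 higher and 241 lower, and the control clones have 0.

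The control level showed which side of a gap lay farther from control, though control often lay between the 2 sides. In 390 of 550 calls the control mean lay between the clone set apart and the mean of the other 2 knockdown clones. In 414 of 550 calls the control mean lay nearer to the other 2 knockdown clones than to the clone set apart, and in 136 it lay nearer to the clone set apart. Clones 2 and 3, where set apart, were mostly the side farther from control, in 44 of 54 and 325 of 393 calls. Clone 1 differed in this respect, since for 58 of its 103 calls the control mean was nearer to clone 1 than to clones 2 and 3. This was most marked for genes higher in clone 1, where control was nearer to clone 1 in 38 of 57. The clone set apart lay at least 2-fold from control in 327 of the 550 calls, and both other clones did in 72.

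Further probe sets of the same genes were not used by the rule. In most calls that had any, at least 1 placed the same clone at the same end. Of 550 calls, 344 were of genes with at least 1 further probe set, and in 292 of these some further probe set had the same clone at the same end, by at least 2-fold in 97. In 144 calls the brightest further probe set had a mean of at least 6 on the log2 scale. In 141 of these some further probe set, not always the brightest, placed the clone at the same end, by at least 2-fold in 67. These counts ask for only 1 of what may be several probe sets. Over all genes, read on 1 probe set, a given clone was at a given end in 28.7% to 37.4%. A further probe set lay 2-fold the opposite way in 1 call, that of the chromatin remodeller ATRX in clone 3, a gene singled out after its values were seen. When all probe sets of a gene were averaged, 28 of 105 gaps of the genes named here shrank to under 2-fold. Among the wider ones, SORBS2 went from −2.82 to −0.79 and DUSP1 from 2.12 to 0.69 in clone 3, FPR1 from 1.74 to 0.74 in clone 2, and APBB1IP from −1.83 to −0.65 in clone 1. The others so affected were VCAN, HLA-DPA1, SPDEF, CD74, LGR4, ITGB4, FZD1, FAS, PECAM1, SMAD6, E2F2, HMMR, TRIB3, ASNS, ABCC3, PCDH9 and RBMS3 in clone 3, HSPA12A, TMC5, GDF15 and HS3ST3B1 in clone 2, and PDK3, COL8A1 and FAM133A in clone 1.

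Interferon-stimulated genes were, by number, the largest block of list members that set clone 3 apart, though not by share of the list. These genes are switched on by type I interferon through the factor ISGF3, which binds the interferon-stimulated response element, a repeat of GAAA cores; many encode proteins that block viral RNA. Of 48 listed members measured, 16 (33.3%) were set apart, 14 of them because clone 3 was lower, against 2.65% of all genes. Clone 3 was the lowest of the 3 knockdown clones at 39 of the 48 genes (37.4% over all genes), and the median difference from control was 0.13 in clone 1, 0.29 in clone 2 and −0.65 in clone 3 (all genes 0.00, −0.02 and −0.02). In 13 of the 14 genes both other clones lay above the control mean and clone 3 below it, so the gap came from departures on both sides of control.

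The core of the response element is shown for 5 of the 14 genes, each with more than 1 match in the 250 bases upstream of a RefSeq start, so that the letters shared by these genes can be seen. The motif searched was GAAANNGAAA on both strands. Sequences are from RefSeq, build GRCh38.p14, written 5′ to 3′ along the strand of the gene, with matches on either strand in capitals and lower case for the bases around and between them.
IFIT1, chr10:89392492-89392544, plus strand: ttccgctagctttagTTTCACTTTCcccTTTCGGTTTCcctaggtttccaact
IFIT3, chr10:89332420-89332502, plus strand: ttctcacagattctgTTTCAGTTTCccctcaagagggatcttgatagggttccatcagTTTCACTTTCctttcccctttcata
ISG15, chr1:1013369-1013414, plus strand: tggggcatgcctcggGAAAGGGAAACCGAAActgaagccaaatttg
OAS3, chr12:112938316-112938473, plus strand: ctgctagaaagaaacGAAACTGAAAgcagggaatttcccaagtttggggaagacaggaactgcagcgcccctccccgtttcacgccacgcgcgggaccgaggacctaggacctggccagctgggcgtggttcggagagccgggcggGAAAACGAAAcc
DDX60, chr4:168318781-168318855, minus strand: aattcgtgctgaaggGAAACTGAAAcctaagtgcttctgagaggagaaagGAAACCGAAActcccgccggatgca
The matches of IFIT1 and IFIT3, which encode proteins that bind viral RNA, lie on the strand opposite to the gene and so read as runs of TTTC. In ISG15, a ubiquitin-like modifier, the matches overlap each other. OAS3 makes the messenger that activates RNase L, and DDX60 is a helicase of antiviral defence. Of the 14 genes, 11 had a start window in the table and 9 of these held the motif, against 3.71% of all 27305 genes and 3.02% of all 35116 start windows (a gene can have several). Among listed interferon-stimulated genes not set apart in any clone, 15 of 26 with a window held it, so it was also common among list members that did not separate the clones. Over all 241 genes lower in clone 3, 18 of 174 with a window (10.3%) held it, and 5 of 116 (4.31%) among genes higher in clone 3. A match is a description of the letters in the window and not a binding site.

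IFIT2, an RNA-binding antiviral protein, had the widest interferon gap. Its signal was 11.39, 11.87 and 8.64 in knockdown clones 1, 2 and 3, and 10.18, 10.09 and 10.12 in the control clones. Clone 3 was thus 6.71-fold below the nearer clone and 2.80-fold below the control mean, while clones 1 and 2 lay above every control. IFIT3, its partner protein, read 12.60, 12.84 and 9.93, against control values of 11.44, 11.41 and 11.36. IFIT1 read 11.31, 11.85 and 8.74, against 10.01, 9.49 and 9.83. OASL, an antiviral protein related to the oligoadenylate synthetases, read 9.88, 9.80 and 7.19, against 9.39, 9.22 and 9.36. In all 4 genes clone 3 was below every control array and the other knockdown clones above every control array. SAMD9 and SAMD9L, neighbouring antiviral genes, MX1, a GTPase that blocks viruses, and the RNA sensor IFIH1 were among the remaining 10, of which each lay at least 1.12 below the nearer clone. The members set apart otherwise were IFI27, at 9.57, 7.80 and 8.33 with a control mean of 9.83 ± 0.07 (SD, n = 3), and the membrane antiviral protein IFITM1, at 9.94, 8.71 and 9.94 with a control mean of 10.03 ± 0.06. In IFI27 clones 2 and 3 lay farthest from control, and in IFITM1 clone 2 did.

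Genes of DNA replication and the start of S phase were also lower in clone 3. Of 33 listed members, 7 (21.2%) were set apart, all lower in clone 3, against 1.22% of all genes. Clone 3 was the lowest of the 3 clones at 29 of the 33, against 37.4% over all genes. Cyclin E2 (CCNE2), which drives entry into S phase, had the widest gap, with 9.93, 9.72 and 7.49 in clones 1, 2 and 3 and 9.10, 9.12 and 9.02 in the controls. RRM2, a subunit of the enzyme that makes deoxynucleotides, read 12.46, 12.35 and 10.48, with a control mean of 11.72 ± 0.05 (SD, n = 3). The replication licensing factor CDC6 read 9.13, 9.14 and 7.65, with a control mean of 8.12 ± 0.16. E2F2, a transcription factor of the same programme, read 7.18, 7.05 and 5.93, with a control mean of 6.94 ± 0.05. In all 7 genes clone 3 lay below the control mean and both other clones above it. The 7 include CDKN1A (p21), which does not drive but restrains the cell cycle, at 10.19, 9.87 and 8.76.

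Fewer mitotic genes passed the 2-fold limit. Of 37 listed members 2 (5.41%) were set apart, both lower in clone 3, against 1.22% of all genes. They were the spindle protein gene HMMR and the kinetochore gene NDC80. Clone 3 was the lowest of the knockdown clones at 34 of the 37 genes (37.4% over all genes) and clone 2 the highest at 33 (28.7% over all genes). The median difference from control was 0.22 in clone 1, 0.45 in clone 2 and −0.27 in clone 3. In bulk RNA, fewer cells in a phase and less RNA per cell cannot be told apart.

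Genes associated with bone metastasis of this line were higher in clone 3. The list was put together from general knowledge of MDA-MB-231 sublines, with earlier results of these data known. Of 14 members measured, 9 (64.3%) were set apart, against 2.65% of all genes. Of these, 6 (42.9% of the list) were higher in clone 3, against 0.769% of all genes. The median difference from control was −0.21 in clone 1, −0.01 in clone 2 and 0.78 in clone 3 (all genes 0.00, −0.02 and −0.02). IL11, a cytokine that promotes bone resorption, read 8.39, 8.73 and 10.86 in knockdown clones 1, 2 and 3, and 7.10, 6.94 and 6.91 in the control clones. All 3 knockdown clones were above control, and clone 3 was 4.38-fold above the nearer clone. The collagenase MMP1 read 8.68, 8.32 and 10.71, against 7.99, 7.93 and 7.90, again with all knockdown clones above control. Follistatin (FST), which binds activin, read 9.04, 9.23 and 10.79, with a control mean of 9.19 ± 0.08 (SD, n = 3), so that here only clone 3 had left the control level. The phosphatase gene DUSP1, described with the early response genes below, was also higher in clone 3. CCN2, a matrix protein induced by TGF-beta and YAP, read 11.19, 11.59 and 12.60, with a control mean of 11.42 ± 0.06. The other members set apart were CXCR4, a chemokine receptor, higher in clone 2 at 4.92, 6.52 and 5.19, SRGN, a secretory granule proteoglycan, lower in clone 1 at 11.12, 12.66 and 12.45, TGFBI, a matrix protein, lower in clone 2 at 10.19, 9.12 and 10.30, and CYP24A1, higher in clone 3 at 3.02, 3.23 and 4.24, under the array medians.

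The list of genes tied to lung metastasis of the same line had 4 of 23 members set apart (17.4%, against 2.65% of all genes), with no common clone. MMP1 and PTGS2 were higher in clone 3 and FSCN1 higher in clone 1. PLAAT4, a tumour suppressor with phospholipase activity, separated all 3 clones, at 9.32, 10.53 and 7.93 with a control mean of 9.78 ± 0.07 (SD, n = 3).

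Early response genes contributed 3 of 32 listed members (9.38%), all higher in clone 3, against 0.769% of all genes. The list as a whole did not single out clone 3, which was the highest of the knockdown clones at 13 genes and the lowest at 13. Its median difference from control was −0.23, −0.19 and −0.17 in clones 1, 2 and 3. The phosphatase DUSP1, which shuts off MAP kinases, read 9.34, 9.49 and 11.61, against 9.93, 9.96 and 10.03 in the controls. The transcription factor EGR1 read 7.88, 7.61 and 10.01, against 8.62, 8.51 and 8.45. For both genes clone 3 was above and the other clones below every control array. FOS read 5.53, 4.90 and 6.87, against 6.86, 6.93 and 6.87, so for this gene clone 3 stood at the control level and the other clones below it. Serum response factor acts on such genes through the CArG box, a run of A and T between CC and GG. The EGR1 window held a pair of matches on the plus strand of build GRCh38.p14, shown in capitals to set the gene beside the interferon genes above.
EGR1, chr5:138465359-138465420, plus strand: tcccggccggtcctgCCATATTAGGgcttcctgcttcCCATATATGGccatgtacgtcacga
Neither FOS nor DUSP1 held a match in its window, nor did any of 21 early response genes that were not set apart, and 1.44% of all genes held one.

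**Figure D3:**
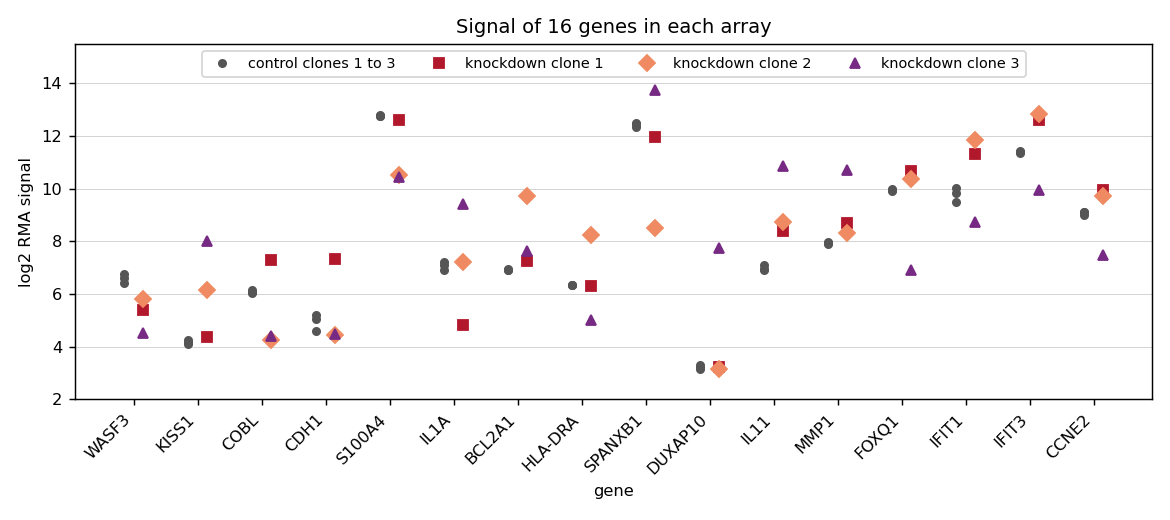
Log2 RMA signal (vertical axis) of 16 genes named in the text, 1 point for each array, with control clones as grey circles and the knockdown clones as squares, diamonds and triangles. The control points lie close together for most genes, less so for CDH1 (4.59 to 5.19) and IFIT1 (9.49 to 10.01). A different knockdown clone stands away from the others in different genes, such as clone 1 for COBL, clone 2 for BCL2A1 and clone 3 for FOXQ1.

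The widest gap of all was that of DUXAP10, a pseudogene RNA that was low in clones 1 and 2 and in control and high in clone 3. It read 3.22, 3.13 and 7.74 in knockdown clones 1, 2 and 3, and 3.13, 3.23 and 3.28 in the control clones. The long noncoding RNA UCA1 read 5.26, 4.92 and 8.35, with a control mean of 5.28 ± 0.19 (SD, n = 3). ARG2, the mitochondrial arginase, read 5.81, 6.00 and 9.07, with a control mean of 5.64 ± 0.03. In these genes clones 1 and 2 were at or near the control level and only clone 3 differed, by 8.42-fold for UCA1 and 10.8-fold for ARG2. TRIML2 (7.59 in clone 3, 4.71 ± 0.04 in control), the protease gene ADAMTS6 (7.79 and 5.72 ± 0.07), MAMDC2 (8.48 and 4.63 ± 0.32), the phospholipase gene PLCB4 (6.27 and 3.27 ± 0.05) and the secreted ligand gene WNT2B (7.08 and 4.84 ± 0.11) completed the 8 widest gaps with clone 3 higher. Pseudogene RNAs can share probes with their parent genes, so the value of DUXAP10 is uncertain as to its source.

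Among genes lower in clone 3, galanin (GAL), a neuropeptide, had the widest gap, with 7.60, 7.66 and 4.06 in the knockdown clones and a control mean of 8.05 ± 0.05 (SD, n = 3). The forkhead factor FOXQ1, which has been tied to epithelial plasticity, read 10.68, 10.36 and 6.93, against 9.92, 10.00 and 9.95. SORBS2, an adaptor of focal adhesions and actin fibres, read 7.31, 7.42 and 4.49, with a control mean of 7.42 ± 0.10. SLC47A1, an exporter of organic cations, read 7.40, 6.81 and 4.23, with a control mean of 6.27 ± 0.14. In all 4 genes clone 3 lay farthest from control, and in FOXQ1 and SLC47A1 clone 1 also lay away from it, 0.73 and 1.14 above the control mean. Genes of the luminal list followed, with 4 of 16 members (25%) lower in clone 3, against 1.22% of all genes. Clone 3 was the lowest of the knockdown clones at 9 of the 16 (37.4% over all genes). Clone 1 was the highest at 13 (35.8% over all genes). AGR2, an endoplasmic reticulum protein needed for mucin secretion, read 12.41, 11.66 and 9.45, with a control mean of 11.93 ± 0.06. The trefoil factor gene TFF1 read 10.52, 9.40 and 7.71, with a control mean of 12.16 ± 0.09, so that all 3 knockdown clones were below control and all were apart from each other. TFF3 read 8.49, 8.25 and 6.50, with a control mean of 9.48 ± 0.08, and the factor SPDEF read 9.59, 9.31 and 7.85, with a control mean of 9.49 ± 0.04.

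Inflammatory cytokine genes split the clones in both directions. Of 30 listed members 6 (20.0%) were set apart, against 2.65% of all genes. Of the 6, 4 were higher in clone 3. IL1A read 4.81, 7.23 and 9.41 in knockdown clones 1, 2 and 3, and 7.23, 6.89 and 7.11 in the control clones. Clone 2 was at the control level, clone 1 was 4.79-fold below it and clone 3 5.06-fold above it. IL1B, the second interleukin-1 gene, read 8.05, 8.71 and 10.92, against 11.47, 11.38 and 11.37, so the clone set apart was the one nearest to control. PTGS2 (cyclooxygenase 2) read 4.82, 4.51 and 6.65, with a control mean of 5.75 ± 0.19 (SD, n = 3). The chemokine gene CXCL11 was higher in clone 2, at 3.20, 5.35 and 2.99, with a control mean of 3.79 ± 0.13. CCL20, a chemokine for lymphocytes and dendritic cells, was lower in clone 1, at 6.63, 8.14 and 8.54, with a control mean of 8.46 ± 0.03.

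The widest gap with clone 1 higher was that of COBL. This gene encodes an actin nucleator that works without the ARP2/3 complex, and it read 7.30, 4.24 and 4.39 in knockdown clones 1, 2 and 3, and 6.08, 6.15 and 6.04 in the control clones. Clone 1 was above and the others below every control. E-cadherin (CDH1), the adhesion molecule of epithelial junctions, read 7.33, 4.44 and 4.47, against 5.19, 4.59 and 5.05. Here clone 1 alone was away from control, by 5.25-fold, and the further probe set of CDH1, with a mean of 3.96, did not place clone 1 highest. Desmoplakin (DSP), which anchors desmosomes to keratins, read 10.02, 7.96 and 7.59, with a control mean of 9.94 ± 0.13 (SD, n = 3). S100A4, a calcium-binding protein known for its part in metastasis, read 12.63, 10.52 and 10.44, with a control mean of 12.78 ± 0.03. For DSP and S100A4 clone 1 was near the control level and clones 2 and 3 were at least 4-fold below clone 1. The same held for fascin (FSCN1), which bundles actin in filopodia, with clone 1 at 8.60, clone 2 lying 1.60 lower, clone 3 at 6.55 and a control mean of 8.52 ± 0.03, and for S100P, at 12.19, 10.51 and 10.08 with a control mean of 12.05 ± 0.07, although these gaps were smaller. CDH1 and DSP were the 2 of 31 epithelial list members (6.45%) that were set apart, against 2.65% of all genes. Clone 1 was the highest of the knockdown clones at 17 of the 31, against 35.8% over all genes.

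The other 4 of the 8 widest gaps with clone 1 higher were in MAL2, RNF128, GPRC5C and MUC5AC. MAL2, a protein of apical transport, read 10.30, 7.73 and 6.35, with a control mean of 9.07 ± 0.14 (SD, n = 3). RNF128, a ubiquitin ligase, read 7.22, 4.74 and 4.54, with a control mean of 4.45 ± 0.13, so that clone 1 alone was away from control. The orphan receptor gene GPRC5C read 9.29, 6.84 and 5.48, with a control mean of 8.40 ± 0.04, and the gel-forming mucin gene MUC5AC read 9.77, 7.36 and 7.46, with a control mean of 8.61 ± 0.04. Among genes lower in clone 1, IL1A had the widest gap, followed by ARMCX2 at 6.75, 9.03 and 9.55 with a control mean of 8.45 ± 0.05. APBB1IP, which links the GTPase RAP1 to integrin activation, read 7.86, 9.69 and 10.56, with a control mean of 9.15 ± 0.06. GMFG, a factor that removes branches made by the ARP2/3 complex, read 6.45, 8.15 and 8.43, with a control mean of 6.46 ± 0.09, so that clones 2 and 3 were above control and clone 1 at it. KISS1, CCL20, MAP4K3-DT and TMEM178A completed the 8. Clone 1 had the highest 3′ over 5′ signals of ACTB and GAPDH given above, and their part in its differences was not tested.

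MHC class II genes set apart both clone 2, as higher, and clone 3, as lower. These encode the molecules that present peptides from outside the cell to helper T cells, and are normally made by professional antigen-presenting cells or after interferon-gamma. HLA-DRA, the alpha chain of HLA-DR, read 6.29, 8.24 and 5.01 in knockdown clones 1, 2 and 3, and 6.32, 6.34 and 6.34 in the control clones. Clone 1 was at the control level, clone 2 was 3.74-fold above it and clone 3 2.51-fold below it. HLA-DMA, which helps load peptides, read 7.12, 9.01 and 7.25, with a control mean of 7.78 ± 0.03 (SD, n = 3). HLA-DPA1 read 6.69, 7.68 and 5.19, with a control mean of 5.38 ± 0.03, and the invariant chain CD74 read 7.94, 8.64 and 6.49, with a control mean of 7.65 ± 0.09. In both of these genes clone 3 was the clone set apart and clone 2 was the highest. For HLA-DPA1 clone 3 was near control while clones 1 and 2 lay 1.31 and 2.30 above it, and for CD74 clone 3 lay 1.16 below control. Of 26 MHC and antigen processing genes measured these 4 (15.4%) were set apart, against 2.65% of all genes. They gave 2 calls higher in clone 2 (7.69%, against 0.192% of all genes). A further 3 calls were lower in clone 3 (11.5%, against 1.22%), with HLA-DRA called in both clones. Clone 2 was the highest of the knockdown clones at 21 of the 26, against 28.7% over all genes. CIITA, the master activator of class II genes, read 5.48, 5.45 and 5.27, with a control mean of 5.44 ± 0.14, and was not set apart. HLA genes are close relatives and carry many alleles, so probes may read more than 1 of them.

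The anti-apoptotic gene BCL2A1 had the widest gap among genes higher in clone 2 with a reading of at least 6. It read 7.27, 9.71 and 7.65 in the knockdown clones and 6.96, 6.91 and 6.91 in the controls. The cilium gene CFAP53 read 4.22, 6.36 and 4.30, with a control mean of 4.36 ± 0.09 (SD, n = 3), and the formyl peptide receptor gene FPR1 read 5.94, 7.67 and 5.54, with a control mean of 5.99 ± 0.07. In both, clone 2 alone was far from control. EVA1A, a regulator of autophagy, differed in all 3 clones, at 5.62, 8.79 and 6.94, with a control mean of 7.77 ± 0.11. LEFTY1, an inhibitor of NODAL signalling, and the HSP70 family gene HSPA12A completed the 8, at 7.02 and 6.57 in clone 2.

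SPANXB1, a cancer-testis gene on the X chromosome, had the widest gap among genes lower in clone 2. Its signal was 11.96, 8.50 and 13.74 in knockdown clones 1, 2 and 3, and 12.33, 12.45 and 12.48 in the control clones. Clone 2 was 15.1-fold below the control mean and clone 3 was 2.50-fold above it. The SPANX genes are near-identical copies, and probes may read several of them. The iron-carrier binding protein gene LCN2 read 9.07, 7.32 and 9.02, with a control mean of 8.91 ± 0.06 (SD, n = 3). TMC5 read 8.03, 6.55 and 7.96, with a control mean of 6.76 ± 0.07, so that clone 2 was the one near control. APCDD1L read 7.68, 6.54 and 8.22, with a control mean of 10.00 ± 0.07, and was lower than control in all 3 knockdown clones. Lipoprotein lipase (LPL), the stress cytokine gene GDF15, IFITM1 and the heparan sulfate enzyme gene HS3ST3B1 were the others of the 8.

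Of the 25 genes with all 3 clones apart, clone 2 was in the middle for 16, clone 1 for 8 and clone 3 for 1. The most common order, in 12 genes, put clone 1 highest and clone 3 lowest. Clone 1 was the nearest of the 3 to the control mean in 16 genes, clone 2 in 8 and clone 3 in 1. The 5 with the largest smaller gap were IL1A, KISS1, SPANXB1, RARRES2 and CDH11. RARRES2, which encodes the chemoattractant chemerin, read 9.53, 7.54 and 5.82, with a control mean of 7.90 ± 0.06 (SD, n = 3). Cadherin 11 (CDH11), a mesenchymal cadherin, read 11.14, 9.58 and 8.14, with a control mean of 10.48 ± 0.06. CDH11 and S100A4 were the 2 of 27 mesenchymal and EMT list members set apart (7.41%, against 2.65% of all genes). Both were highest in clone 1, but the list as a whole went the other way. Clone 1 was the lowest of the knockdown clones at 15 of the 27, against 30.7% over all genes.

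Some lists held no member that set a clone apart, against 2.65% of all genes, a share at which lists of this size would hold few. These were the WAVE and ARP2/3 components (20 measured), EGFR family and ligands (13), HOX genes (22), oxidative phosphorylation (29) and ribosomal proteins (26). Only 5 of the 22 HOX genes had a mean of at least 6, so most had little room to come apart. In the WAVE list the median difference from control was −0.15, −0.10 and −0.26 in clones 1, 2 and 3. Other programmes had few. Hypoxia and glycolysis genes had 3 of 37 (8.11%), and their median difference from control was alike in the clones, at −0.43, −0.45 and −0.39. The glucose transporter SLC2A3, one of the 3, read 7.44, 7.31 and 8.94, with a control mean of 8.77 ± 0.04 (SD, n = 3), and the kinase gene PDK3 read 7.80, 5.81 and 6.40, with a control mean of 7.77 ± 0.07. NDRG1, the hypoxia-induced metastasis suppressor, read 10.65, 10.54 and 11.98, with a control mean of 12.30 ± 0.04. In these 3 genes the clone set apart was the one nearest to control.

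Smaller groups added single members. Each share here stands against 2.65% of all genes set apart (0.769% higher and 1.22% lower in clone 3) and rests on few genes. Several of the genes named here fell under 2-fold when their probe sets were averaged, as listed above. Cholesterol synthesis had 2 of 19 (10.5%), with INSIG1, a sensor of sterols, at 7.92, 7.56 and 9.12 and MSMO1 at 8.65, 8.07 and 9.67, both higher in clone 3. The unfolded protein and ATF4 response had 3 of 30 (10.0%), with ASNS and TRIB3 higher in clone 3 and the serine synthesis gene PHGDH higher in clone 1, at 7.45 against 5.80 and 6.20 and a control mean of 7.59 ± 0.06 (SD, n = 3). TGF-beta, activin and BMP genes had 5 of 32 (15.6%), which included the inhibitory SMAD6 at 7.63, 6.67 and 5.54 and the BMP target ID2 at 7.94, 6.64 and 5.47. Wnt genes had 3 of 26 (11.5%), with the receptors FZD1 and LGR4 lower in clone 3. Extracellular matrix had 4 of 40 (10.0%), with the proteoglycan VCAN higher in clone 3 and the collagen gene COL8A1 lower in clone 1. Integrins and focal adhesion had 2 of 30 (6.67%), ITGA10 higher and ITGB4 lower in clone 3. Aryl hydrocarbon receptor targets had 2 of 9 (22.2%), CYP1B1 and ALDH3A1, both lower in clone 3. The zinc exporter SLC30A1, on the metallothionein list, read 9.52, 8.88 and 6.90, with a control mean of 9.11 ± 0.08. Targets of p53 had 3 of 18 (16.7%): CDKN1A and the death receptor FAS were lower in clone 3, and GDF15, at 7.33, 6.18 and 8.36, was apart in all clones. YAP and TEAD targets had 3 of 25 (12%), with CCN2 and RBMS3 higher and FOXF2 lower in clone 3. Of 23 cancer-testis antigens, SPANXB1 and FAM133A (8.70%) were set apart, the latter at 5.68, 4.44 and 3.63 with a control mean of 7.54 ± 0.18, below control in all 3 knockdown clones. Cadherin genes had 3 of 25 (12%), which were CDH1, CDH11 and PCDH9. The drug exporter ABCC3 was the only NRF2 target of 20 set apart (5%), higher in clone 3.

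**Figure D4:**
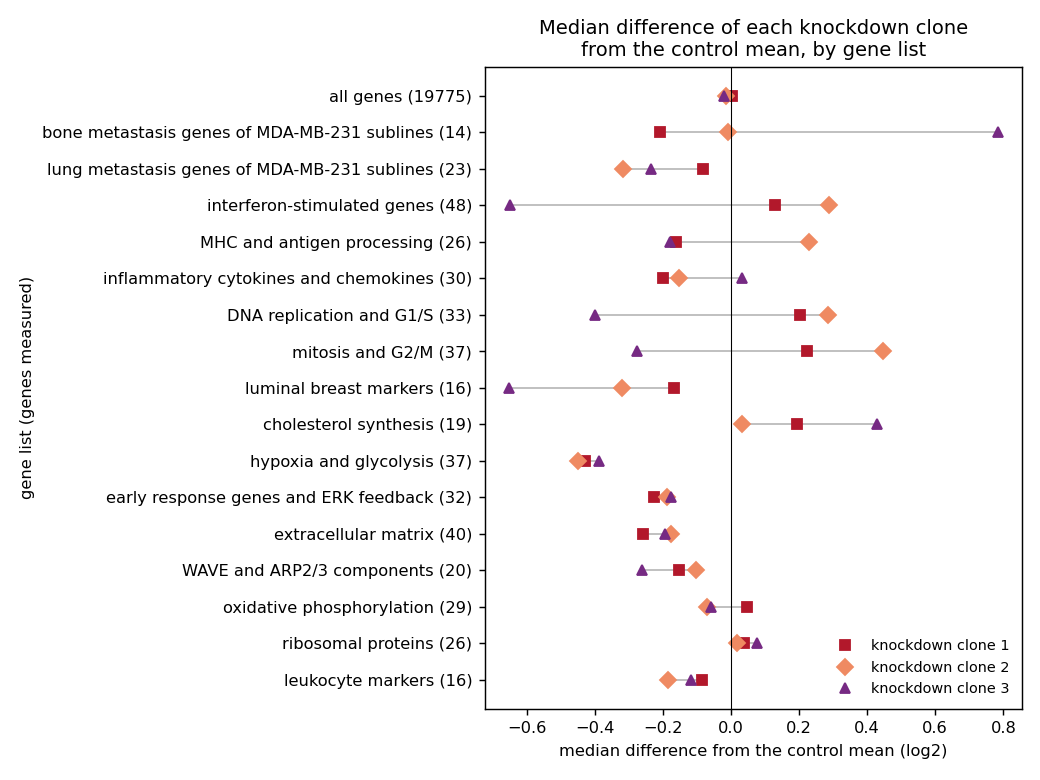
Median over the measured members of each gene list of the difference from the control mean (horizontal axis, log2), with 1 point for each knockdown clone and the number of genes in brackets. Clone 3 lies on the other side of 0 from clones 1 and 2 for interferon-stimulated, DNA replication and mitotic genes, while the clones lie together for hypoxia and glycolysis genes.

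Part of the divergence followed the order of genes along chromosomes. Cancer lines gain and lose stretches of chromosomes, and a stretch present in more or fewer copies shifts many neighbouring genes a little in 1 direction, which a 2-fold limit on single genes does not count. The 10539 genes with a mean of at least 6 were placed in RefSeq order, and the median difference of a clone from the mean of the other 2 clones was taken over windows of 25 neighbours. It passed 0.3 on the log2 scale in 5.52% of 9987 windows for clone 1 (332 higher and 219 lower), 3.86% for clone 2 (376 higher and 9 lower) and 5.59% for clone 3 (69 higher and 489 lower). In the control clones 0 windows passed, and the running median stayed between −0.10 and 0.11. DNA was not measured, so no copy number is known.

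The longest run was on chromosome 2 in clone 2, 130 genes from SLC5A6 to RAB1A, with a running median of up to 0.53. Over that run 114 of the 130 genes were higher in clone 2 than the mean of the others, and the median difference from control was 0.21, 0.56 and 0.04 in clones 1, 2 and 3. On chromosome 14 clone 1 was lower over 52 genes from PSMA3-AS1 to PCNX1, down to −0.50, where the median difference from control was −0.01, 0.38 and 0.32. On chromosome 17 clone 3 was lower over 51 genes from MRPS23 to AMZ2P1, down to −0.55, where it was 0.48, 0.60 and −0.04. In the latter 2 runs the clone set apart was the one at the control level. Chromosome 17 held the largest share for clone 3, with 243 of 593 windows (40.98%) past the limit, chromosome 14 for clone 1 (125 of 317, 39.4%), and chromosome 2 for clone 2 (211 of 679, 31.1%). On chromosome 12, 136 of 546 windows were higher in clone 1.

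**Figure D5:**
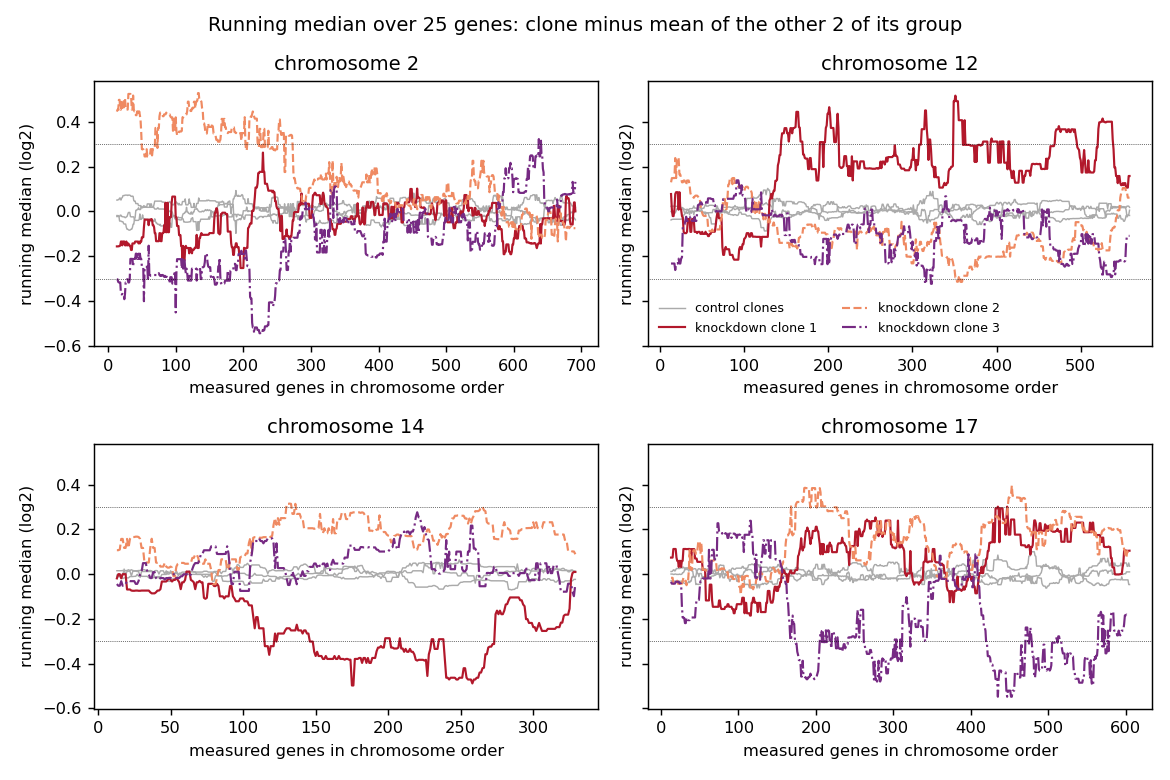
Running median over 25 neighbouring genes of the difference of a clone from the mean of the other 2 clones of its group (vertical axis, log2) against gene order on 4 chromosomes, with dotted lines at 0.3 and −0.3. Control clones in grey stay between the lines, while knockdown clone 2 is above on chromosome 2, clone 1 above on chromosome 12 and below on chromosome 14, and clone 3 below on chromosome 17.

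A place in a window was found for 84 of 103 genes set apart in clone 1, 30 of 54 in clone 2 and 270 of 393 in clone 3. The others were not assessed, and few of the placed genes lay in such runs. Of the genes set apart with a place in a window, 6 of 84 in clone 1, 1 of 30 in clone 2 and 31 of 270 in clone 3 (11.5%) lay at the centre of a window that passed in the same direction. For genes lower in clone 3 it was 26 of 186 (13.98%), against 4.90% of all windows, and for genes higher in clone 3 it was 5 of 84 (5.95%), against 0.691%. For genes higher and lower in clone 1 it was 3 of 46 (6.52%) and 3 of 38 (7.89%), against 3.32% and 2.19%, and for those of clone 2 it was 1 of 21 (4.76%) and 0 of 9, against 3.76% and 0.0901%. The genes lower in clone 3 included CDC6, ITGB4, PECAM1 and GPRC5C on chromosome 17. Most of the genes set apart that had a place therefore lay outside the stretches where neighbours were shifted together. Their share inside was still above that of all windows, except for genes lower in clone 2.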

How the data were processed

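RNA of 3 knockdown and 3 control clones of MDA-MB-231 was measured on Affymetrix 3′ expression arrays, 1 for each clone. The deposited table holds log2 values that, per the submitters' processing notes, the authors made with RMA and Affymetrix Expression Console 1.0. RMA sets all arrays to 1 distribution, which hides changes common to most transcripts, and it gives no detection calls. The number of arrays limits the precision.

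Gene names come from the platform annotation, updated through a RefSeq table of GRCh38.p14: 41091 of 54613 carried 1 symbol (41037 matched by identifier), 1801 several and 11721 none. Each of 19775 genes was read on its probe set of highest mean. Values were compared in Python 3.11.15 with numpy 2.4.6 and pandas 2.3.3, and the counting rule was tested on simulated data. There were 40 gene lists (831 of 929 genes measured), and 0 columns of other samples.

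The members, the lists and the rules were chosen with earlier results of these data known. The genes named are WASF3, KISS1, the 8 widest gaps for each clone and direction with a higher side of at least 6, 5 genes with all 3 clones apart, and up to 4 for each list. ATRX, CIITA, CXCR4, CYP24A1, DDX60, IFI27, IFIH1, ISG15, LINC02535, MX1, OAS3, PGR, RGL3, SAMD9, SAMD9L, SRGN and VIM lie outside this rule and were named after their values were seen. Alternatives covered the probe set, the limit, the level, normalization, the window and leaving out each array.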

Additional observations from a re-analysis of the deposited data

How the results depend on the processing

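No paired analysis was possible because the counts come from no test, with 1 array for each clone. Same-numbered knockdown and control arrays were also unrelated in their deviations (r across genes −0.08 to −0.04). With the mean of all probe sets of a gene, the counts set apart were 315 genes in any knockdown clone, 62 in clone 1, 32 in clone 2, 235 in clone 3 and 14 with all 3 apart, and 284 of the 315 were among the 525. Without probe sets that may match several genes, all 3 clones were apart at 16 genes. With a mean of at least 6, clone 2 was set apart at 31 genes. A 4-fold limit left 57 genes (clone 1 10, clone 2 4, clone 3 44, all 3 apart 1). A limit of 0.5 on the log2 scale, chosen after seeing the data, gave 2942 genes in any knockdown clone (872, 445 and 1941 in clones 1, 2 and 3, and 316 with all 3 apart) and 51 in any control clone (17, 11 and 23 in control clones 1, 2 and 3). With 1 of the other knockdown arrays left out, a clone is compared with 1 clone only, and the counts were 229 to 887 for clone 1, 229 to 620 for clone 2 and 620 to 887 for clone 3, and 0 for the control clones. Quantile normalization gave 518 genes in any knockdown clone, 486 of them among the 525. No gap of a named gene reversed, 77 of 105 stayed at 2-fold or more with the mean of all probe sets, and 104 of 105 did with quantile normalization. These checks had little room to fail. Leaving out 1 knockdown array can only keep or widen a gap to the nearer clone. RMA had already set the arrays to 1 distribution, and the mean of all probe sets includes the one chosen. The number of windows past the limit, 551, 385 and 558 in knockdown clones 1, 2 and 3, stayed within 1.5 times in both alternatives. It was 475, 336 and 438 with 41 genes in a window, and 421, 320 and 439 with a level of 5. It stayed at 0 in the control clones. A level of 5 places more genes, so the share of windows can fall by more than their number, and that share was not computed. Readings near background understate a fold.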
